A study of Homo sapiens with 6 samples.

Results

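The genes described here are NOTUM, DKK1, BAMBI and APCDD1, a group of WNT antagonists and feedback targets, taken by name from the gene symbols of the deposited table. No threshold on a measured value was used, but the names were picked with earlier results of these data known. All 4 had a row in the table, 1 row each, among 9718 symbols and 10191 transcript rows, and all 4 had enough reads to be tested. RNA-seq libraries were made from total RNA of Huh7 cells, a human hepatocellular carcinoma line, grown in DMEM and taken a week after puromycin selection. The scrambled group (3 libraries) carried a scrambled short hairpin RNA and the knockdown group (3 libraries) one directed at ABL1, which encodes a cytoplasmic and nuclear tyrosine kinase. Neither group had another treatment. The labels name no hairpin sequence or number of hairpins, so the knockdown is 1 condition in 1 cell line. Nor do they say that replicates were separate cultures, and the spread behind each p-value could then be technical, since it is that between these libraries only.

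WNT proteins are secreted lipid-modified ligands that bind Frizzled receptors and the co-receptors LRP5 and LRP6, which stops the destruction of beta-catenin and lets it switch on genes together with TCF/LEF factors. Several of those genes encode brakes on the pathway, so WNT signalling limits itself, and in the liver the pathway sets the metabolic zones of hepatocytes. NOTUM is a secreted carboxylesterase that removes the lipid from WNT ligands. DKK1 is a secreted protein that binds LRP5 and LRP6 and, with the Kremen receptors, takes them away from the WNT ligand. APCDD1 is a membrane glycoprotein that inhibits WNT signalling at the cell surface. BAMBI is a pseudoreceptor of the BMP and TGF-beta pathways that lacks the kinase domain of true receptors, and is itself a known beta-catenin target.

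The sequence upstream of 3 of these genes is shown because TCF/LEF factors, through which beta-catenin acts, bind a short motif that can be looked for there. Sequences are from RefSeq (GRCh38.p14, plus strand, 5′ to 3′). Of the 4 genes, 3 matched the promoter table, and NOTUM had no entry. The window searched was the 250 bases before the RefSeq start. Bases that lie in an exon of the same gene in the GENCODE annotation are not printed, which leaves out 179 of the 250 for BAMBI, 7 for APCDD1 and 0 for DKK1. Capitals mark every match, on either strand, to CTTTGA or CTTTGT (the core of TCF/LEF sites), CATTCC (the core of TEAD sites), GGCGCC (a GC-rich element that SMAD proteins bind in BMP target genes) and TATAAA (the TATA box). No capitalised matches overlap.
DKK1, chr10:52314031-52314280: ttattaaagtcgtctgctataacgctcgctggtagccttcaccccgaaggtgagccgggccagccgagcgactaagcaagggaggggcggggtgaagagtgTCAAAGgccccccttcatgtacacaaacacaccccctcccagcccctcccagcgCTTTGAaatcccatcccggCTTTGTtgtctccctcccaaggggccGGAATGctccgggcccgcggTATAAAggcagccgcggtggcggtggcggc
BAMBI, chr10:28677271-28677341: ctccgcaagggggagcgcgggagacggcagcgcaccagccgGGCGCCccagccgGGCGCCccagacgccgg
APCDD1, chr18:10454385-10454627: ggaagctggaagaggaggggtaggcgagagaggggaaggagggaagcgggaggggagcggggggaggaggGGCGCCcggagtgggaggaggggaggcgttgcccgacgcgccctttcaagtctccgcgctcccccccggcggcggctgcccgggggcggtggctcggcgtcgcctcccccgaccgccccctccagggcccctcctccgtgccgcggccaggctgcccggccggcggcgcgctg

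The DKK1 window held 2 matches to CTTTGA, which is in 11.2% of 35116 promoter windows of this length, and 1 to CTTTGT, which is in 13.7%. A total of 3 or more matches to either occurred in 0.584% of windows. DKK1 also held 1 match to CATTCC (11.9% of windows) and 1 to TATAAA (10.7%), the latter from 30 to 25 bases before the start. The windows of BAMBI and APCDD1 held none of these 4 motifs. BAMBI held 3 matches to GGCGCC, of which 2 are in the printed stretch, and APCDD1 held 1. At least 1 such match was in 16.4% of windows. BAMBI and APCDD1 were the more GC-rich, with 81.2% and 77.2% G and C, against 62.8% for DKK1 and a median of 58.0% over all windows. CpG dinucleotides numbered 41 for BAMBI, 29 for APCDD1 and 18 for DKK1, and the median was 11. These matches describe the letters only, and whether a factor binds there was not measured. The motifs were chosen with the sequences in view.

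**Figure D1:**
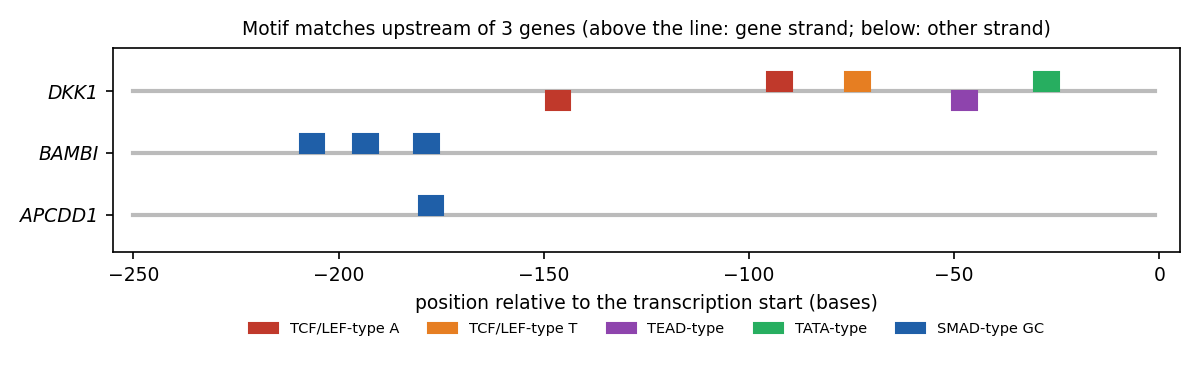
Positions of the motif matches in the 250 bases before the RefSeq start of DKK1, BAMBI and APCDD1 (x axis in bases from the start, boxes above the line on the gene's strand and below it on the other). The 5 matches of DKK1 lie between 149 and 25 bases before the RefSeq start, and the 3 of BAMBI and 1 of APCDD1 lie farther upstream of theirs. For BAMBI 179 of the 250 bases lie in a GENCODE exon, so its matches lie much nearer to the GENCODE start.

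The hairpin's target served as a check of the labels. ABL1 had 2 tested transcripts: NM_007313 had 72.1 ± 1.09 normalized counts in the scrambled and 11.1 ± 2.33 in the knockdown group (SD, n = 3 each) and fell, while NM_005157, the rarer one in the scrambled group, rose, with 8.74 ± 1.84 and 20.5 ± 3.75. The libraries held 6651413 to 10487862 counted reads. Of 8600 tested transcripts 51.9% passed limma's test at an adjusted p of 0.05, with 24.5% higher and 27.4% lower in the knockdown, and for 58.9% the groups did not overlap. Rises made up 47.2% of the calls with the authors' scale factors and 63.6% with libraries scaled to equal totals, which moved the median log2 change of all transcripts from 0.0018 to 0.17. The hepatocyte marker genes AFP and ALB stood at 235839 ± 21106 and 84502 ± 5717 normalized counts in the scrambled group. Of 5 tested hepatocyte markers TF (-0.44), ALB (-0.42) and APOB (-0.20) fell in the knockdown and 0 rose. The fall of APOB (limma adjusted p = 0.0466) was about the size of the median shift under equal totals. The part of these falls in the results below was not tested.

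Knockdown libraries held 24.7% of the NOTUM and 27.7% of the DKK1 RNA of the scrambled libraries, and more BAMBI and APCDD1 RNA. NOTUM was 4.05 times and DKK1 3.61 times lower, while BAMBI was 1.27 times and APCDD1 1.54 times higher. All 4 passed limma's test and all 4 had groups that did not overlap, beside the 51.9% and 58.9% of all tested transcripts just given. Knockdown libraries were all below the scrambled ones for 30.7% of tested transcripts, as for NOTUM and DKK1, and all above them for 28.2%, as for BAMBI and APCDD1. For each gene the direction was the same in 3 of 3 knockdown libraries. In bulk RNA, fewer cells that express a gene and less RNA per cell cannot be told apart.

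**Figure D2:**
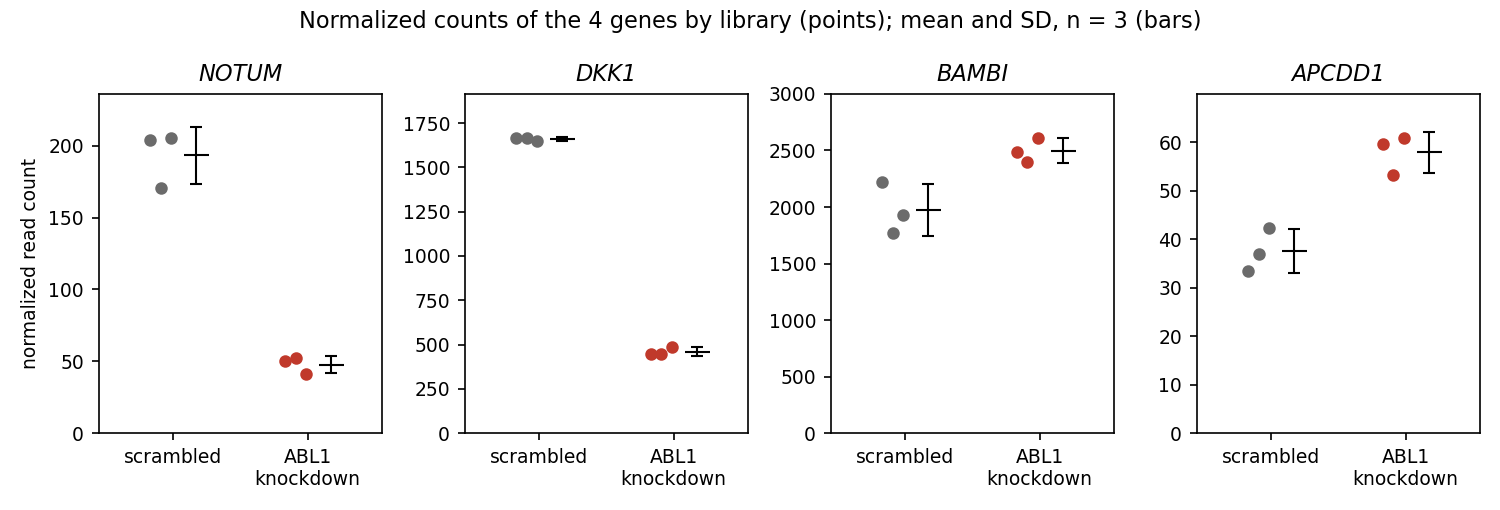
Normalized read counts (y axis, from 0) of NOTUM, DKK1, BAMBI and APCDD1 in the 3 scrambled (grey) and 3 knockdown (red) libraries, with mean and SD beside the points. The knockdown points of NOTUM (41.3 to 52.0) and DKK1 (444 to 488) lie far below the scrambled ones, and those of BAMBI (2398 to 2612) and APCDD1 (53.1 to 60.9) lie above them.

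NOTUM (NM_178493) lies on the minus strand of chromosome 17 in GRCh38, from 81952507 to 81961293, with 11 exons and an exonic length of 2329 bases. Its normalized counts, which are reads adjusted by the authors' scale factor for each library, were 204, 170 and 205 in scrambled replicates 1, 2 and 3. They were 49.9, 52.0 and 41.3 in the knockdown replicates. The lowest scrambled library, replicate 2, was thus more than 3 times above the highest knockdown library. The mean went from 193 ± 19.9 to 47.7 ± 5.68 (SD, n = 3 each), a log2 change of -2.00 (SE 0.17, 95% interval -2.36 to -1.63, limma adjusted p = 9.31e-07). By log2 change it ranked 139 from the lowest among the 8600 tested transcripts. These values rest on 616 reads in the scrambled and 137 in the knockdown group. Counting error alone would give a coefficient of variation of 7.03% and 14.8%, and the observed ones were 10.3% and 11.9%.

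DKK1 (NM_012242) lies on the plus strand of chromosome 10, from 52314296 to 52317657, with 4 exons and 1790 exonic bases. Its normalized counts were 1666, 1667 and 1648 in the scrambled libraries. In the knockdown libraries they were 448, 444 and 488. The groups were far apart, and within the scrambled group the libraries were closer to each other (coefficient of variation 0.649%) than counting error alone gives on average (2.41%). The mean went from 1660 ± 10.8 to 460 ± 24.3, a log2 change of -1.85 (SE 0.08, 95% interval -2.02 to -1.68, limma adjusted p = 4.47e-09). It ranked 177 from the lowest, and it rested on 5241 and 1324 reads. An antisense RNA, PRKG1-AS1, overlaps DKK1, with 1 exon of its models overlapping a DKK1 exon. No source used here says whether reads were counted by strand. The row of PRKG1-AS1 held 1 to 11 reads per library, against 393 to 1998 for DKK1.

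BAMBI (NM_012342) lies on the plus strand of chromosome 10, from 28677342 to 28682939, with 3 exons and 1877 exonic bases. It had 2218, 1766 and 1933 normalized counts in the scrambled libraries. The knockdown libraries had 2486, 2398 and 2612. Scrambled replicate 1 was the nearest to the knockdown group, and the gap between it and knockdown replicate 2 was smaller than the SD of the scrambled group. The mean rose from 1972 ± 228 to 2499 ± 107, a log2 change of 0.35 (SE 0.09, 95% interval 0.16 to 0.54, limma adjusted p = 0.00534). With 6296 and 7195 reads, counting error would give coefficients of variation of 2.20% and 2.05%, so the observed 11.6% and 4.30% are mostly spread between libraries. Without scrambled replicate 2, the lowest of that group, the log2 change was 0.27 (adjusted p = 0.0231), and with equal totals it was 0.52.

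APCDD1 (NM_153000) lies on the plus strand of chromosome 18, from 10454628 to 10489948, with 5 exons and 3809 exonic bases. It had the fewest reads of the 4 genes in the scrambled group. The scrambled libraries had 33.3, 37.0 and 42.2 normalized counts. The knockdown libraries had 59.7, 53.1 and 60.9. Each knockdown library was above each scrambled one. The mean rose from 37.5 ± 4.46 to 57.9 ± 4.17, a log2 change of 0.62 (SE 0.21, 95% interval 0.16 to 1.07, limma adjusted p = 0.0268). The 118 and 167 reads behind it give counting coefficients of variation of 16.1% and 13.4%, above the observed 11.9% and 7.20%. Omitting scrambled replicate 1 (adjusted p = 0.0808) or 2 (0.0533), or knockdown replicate 1 (0.0708) or 3 (0.0760), ended the call, with log2 changes of 0.54 to 0.61.

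**Figure D3:**
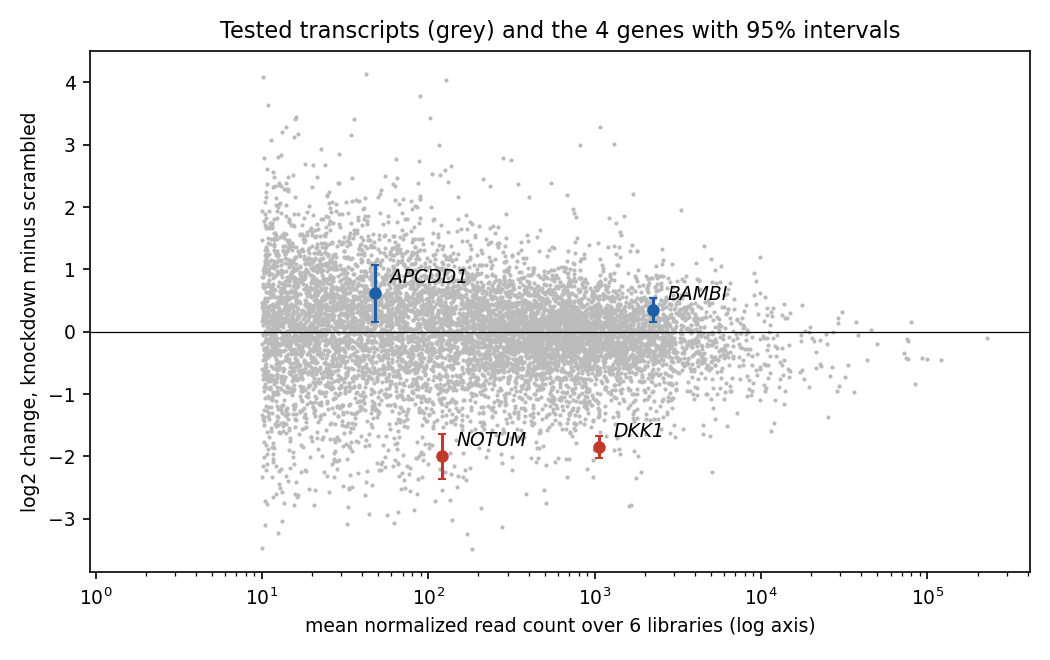
Log2 change (y axis) against mean normalized count (x axis, logarithmic) of the 8600 tested transcripts (grey), with the 4 genes and their 95% intervals. NOTUM (-2.00) and DKK1 (-1.85) lie at the lower edge of the cloud, and BAMBI (0.35) and APCDD1 (0.62) lie within its upper part.

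Levels of different genes were compared per kilobase of exon. In the scrambled group BAMBI (1051 ± 122 normalized counts per kilobase) and DKK1 (927 ± 6.02) were the highest, followed by NOTUM (83.0 ± 8.56) and APCDD1 (9.85 ± 1.17). BAMBI and DKK1 differed there by about the SD of BAMBI. In the knockdown group BAMBI (1331 ± 57.3) was well above DKK1 (257 ± 13.5). NOTUM (20.5 ± 2.44) and APCDD1 (15.2 ± 1.09) came close to each other, with libraries from 17.7 to 22.3 and from 13.9 to 16.0. The order of the 4 genes was thus the same in both groups, while the distance between the first and the second grew and that between the third and the last shrank.

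Ratios between 2 genes within a library do not depend on how libraries are scaled. Scrambled libraries had DKK1 to BAMBI ratios of 0.751, 0.944 and 0.852. Those of the knockdown libraries were 0.180, 0.185 and 0.187, and 4.59 times lower on average. NOTUM to APCDD1 ratios were 6.13, 4.61 and 4.87 in the scrambled group and 0.836, 0.979 and 0.678 after knockdown. NOTUM reads outnumbered APCDD1 reads in every scrambled library and in no knockdown library. The ratio of NOTUM to DKK1 was 0.123, 0.102 and 0.125 against 0.111, 0.117 and 0.0846, with overlapping groups (two-sided exact permutation test p = 0.5, adjusted over the 6 pairs 0.5). Groups did not overlap for the other 5 pairs, each with p = 0.1 by the two-sided exact permutation test, the smallest that 3 against 3 allows, and 0.12 after adjustment. The ratio of BAMBI to APCDD1 was among these, at 66.5, 47.8 and 45.8 against 41.7, 45.1 and 42.9, with a gap between the groups that was small beside their spread.

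The other extracellular WNT antagonists also went both ways. The list named 23 genes, of which 12 had a row and 11 were tested. Including NOTUM, DKK1 and APCDD1, 5 fell and 4 rose, and the median log2 change was -0.27, beside 0.0018 for all tested transcripts. The share called was 81.8%, beside 51.9% of all tested transcripts. Without NOTUM, DKK1 and APCDD1, 3 fell and 3 rose, and the median was -0.13. Of the 8 others, KREMEN1, a receptor that acts with DKK1, had 738 ± 52.7 and then 1503 ± 140 normalized counts (log2 change 1.02, limma adjusted p = 1.63e-06) and rose, in the opposite direction to its ligand. FRZB, a secreted decoy receptor for WNT ligands, rose from 106 ± 6.48 to 235 ± 26.5 (1.14), and SOSTDC1, a secreted WNT and BMP antagonist, from 18.0 ± 10.6 to 53.7 ± 13.2 (1.63). TRABD2B, a protease that cleaves WNT ligands (-0.50), the decoy receptor SFRP5 (-0.77) and the ligand-binding WIF1 (-1.19) fell. SFRP1 (-0.27) and IGFBP4 (0.02) did not pass. With equal totals the counts became 2 falls, which were NOTUM and DKK1, and 4 rises, since TRABD2B, SFRP5 and WIF1 lost their calls. TRABD2B also lost its call without knockdown replicate 2 (adjusted p = 0.0657), SFRP5 without that library or any 1 scrambled library (0.0615 to 0.104), and WIF1 without knockdown replicate 1 or 3 or any 1 scrambled library (0.0604 to 0.105). The genes named in this and the next paragraphs beyond the naming rule were chosen after their values were seen.

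Among 16 tested genes of a list of 30 known WNT and beta-catenin targets, NOTUM and DKK1 were among 9 that fell, and BAMBI and APCDD1 were the 2 that rose. The list's median log2 change was -0.48. Of the 12 others 7 fell and 0 rose, beside 27.4% and 24.5% of all tested transcripts. The cell cycle gene CCND1 (-1.65), the growth regulator MYC (-1.96), the WNT inhibitor NKD1 (-1.48), the receptor EPHB3 (-0.94), the transcription factors SP5 (-0.51) and SOX9 (-0.48) and the growth factor FGF19 (-0.48) were lower. AXIN2, a scaffold of the beta-catenin destruction complex and a widely used feedback target, did not pass, with 119 ± 19.6 and 139 ± 10.9 normalized counts (log2 change 0.24, adjusted p = 0.232, and 0.41 with adjusted p = 0.0465 under equal totals). ZNRF3, a ubiquitin ligase that removes Frizzled receptors, did not pass either (1.01, adjusted p = 0.180), with groups that overlapped. Without scrambled replicate 1 its log2 change was 1.90 (adjusted p = 0.00146). With equal totals 8 of the list fell and 3 rose, since SP5 lost its call and AXIN2 passed.

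**Figure D4:**
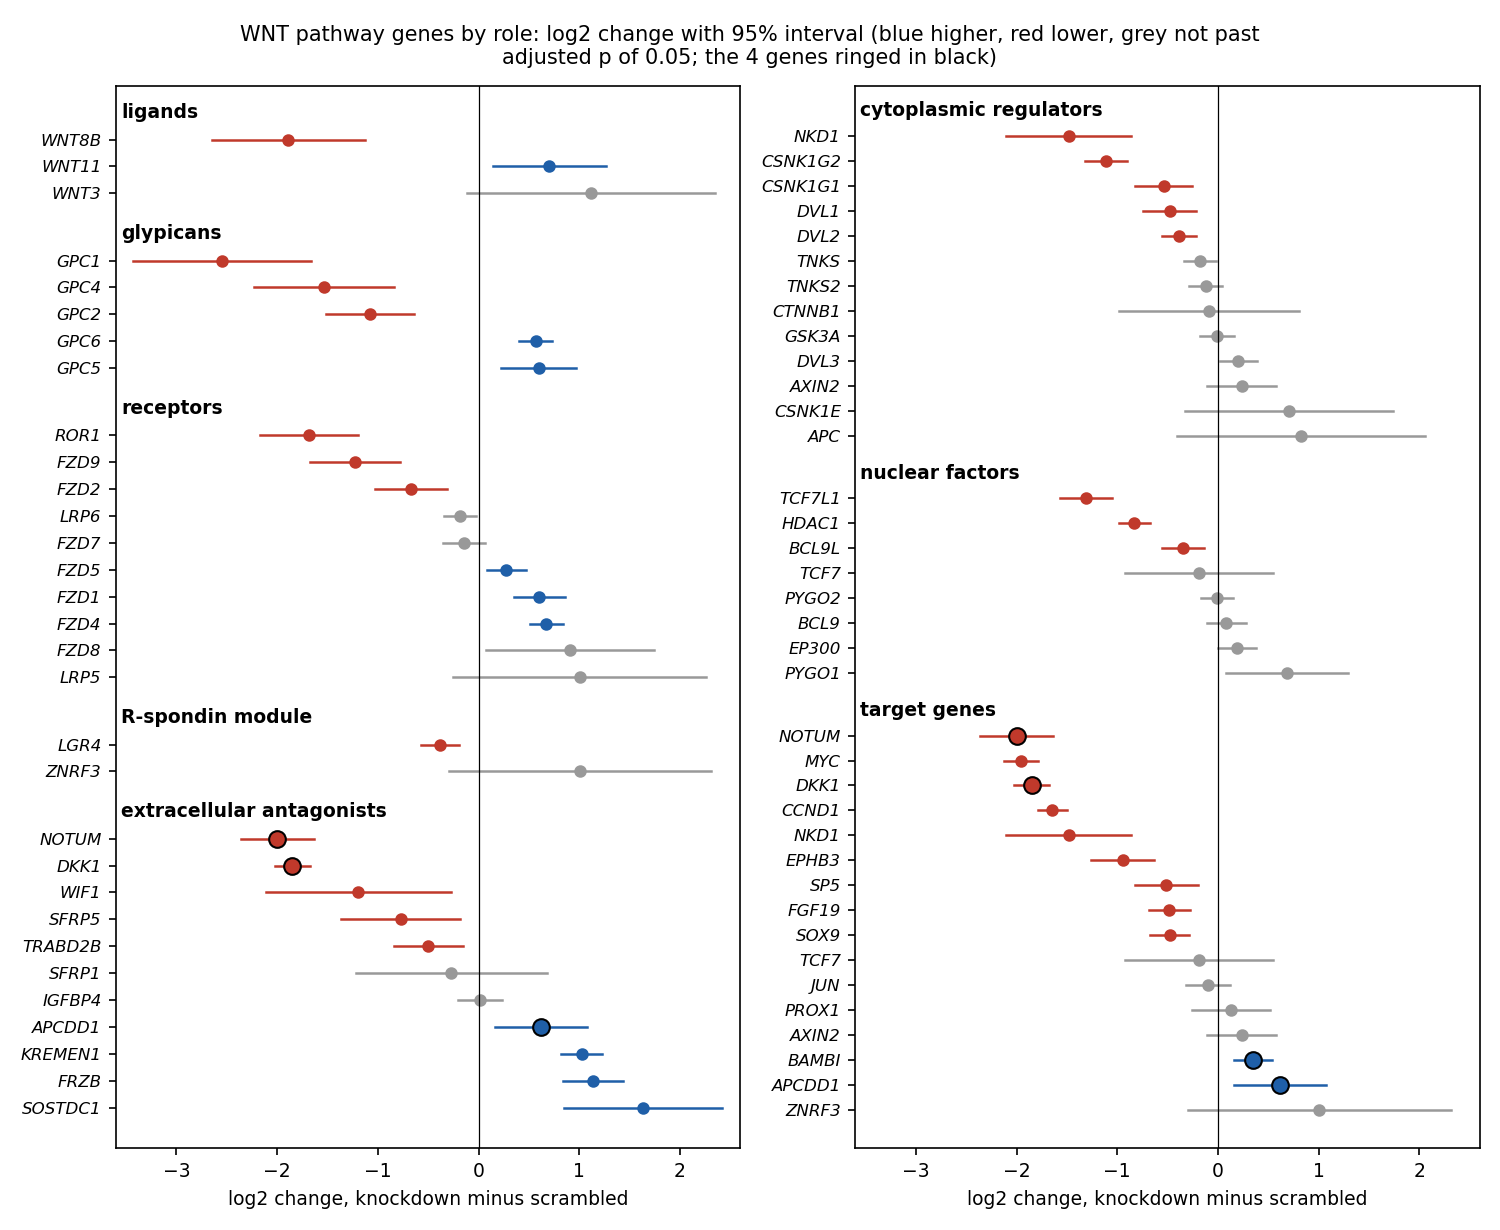
Log2 change (x axis) with 95% interval of each tested gene of 8 WNT pathway lists, grouped by role (blue higher, red lower, grey not past an adjusted p of 0.05). Among the extracellular antagonists NOTUM (-2.00) and DKK1 (-1.85) lie lowest and SOSTDC1 (1.63) highest, and among the target genes BAMBI and APCDD1 are the only ones in blue.

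Upstream of these genes in the pathway, ligands and receptors were divided. The list named 19 WNT ligands, of which 4 had a row. Of 3 tested WNT ligands WNT8B fell (34.7 ± 6.02 and 8.89 ± 3.06 normalized counts, log2 change -1.89), and WNT11 rose (36.1 ± 7.54 and 60.2 ± 18.0, 0.70). The call of WNT11 was lost with quantile normalization and without scrambled replicate 1 or 2 or knockdown replicate 2 or 3 (adjusted p = 0.0575 to 0.173). Of 5 tested glypicans, cell surface proteoglycans that bind WNT ligands and on which NOTUM docks, GPC1 (-2.55), GPC4 (-1.54) and GPC2 (-1.08) fell, and GPC6 (0.57) and GPC5 (0.60) rose. GPC1 went from 36.0 ± 8.17 to 5.68 ± 3.05 normalized counts, and GPC6, the most abundant, from 1019 ± 62.1 to 1509 ± 18.6. Summed over the 5 glypicans, counts ran from 1277 to 1490 in the scrambled and from 1725 to 1790 in the knockdown libraries. These sums are mostly GPC6, and GPC3 had no row. Of 10 tested receptors and co-receptors FZD4 (0.67), FZD1 (0.60) and FZD5 (0.28) rose, and ROR1 (-1.68), FZD9 (-1.22) and FZD2 (-0.67) fell. The groups overlapped for FZD5, whose call was lost without scrambled replicate 2 or 3 or knockdown replicate 1 or 3 (adjusted p = 0.0606 to 0.0931). The co-receptors that DKK1 binds, LRP6 (2026 ± 128 against 1783 ± 25.9, adjusted p = 0.0560) and LRP5 (7.23 ± 4.73 against 13.9 ± 6.82, adjusted p = 0.166), did not pass. LRP6 passed when scrambled replicate 2 was left out (-0.23, adjusted p = 0.0260) and with only transcripts of a mean of at least 30 tested (adjusted p = 0.0483).

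BAMBI was also read beside its other pathway. Of 6 tested BMP and TGF-beta receptors, BAMBI, the type 2 receptor BMPR2 (749 ± 65.5 to 1414 ± 121, log2 change 0.92, limma adjusted p = 4.72e-06) and the co-receptor RGMB (0.49) rose, and 0 fell. ACVR2B (0.17), BMPR1A (0.18) and TGFBR3 (0.39) did not pass. With quantile normalization or equal totals 5 of the 6 rose. RGMB lost its call without scrambled replicate 3 (adjusted p = 0.0590) or knockdown replicate 1 (0.0649). Of 13 tested ligands 9 fell, such as GDF15 (-1.33), INHA (-1.80), TGFB1 (-0.78) and LEFTY1 (-1.01), and 1, TGFB3 (0.83), rose, which became 5 falls and 2 rises with equal totals. Of 11 tested target genes, BAMBI and ID3 (2394 ± 23.7 to 4329 ± 496, log2 change 0.85) rose and 4 fell, among them CTGF (-2.80), TGFBI (6226 ± 405 to 3112 ± 138 normalized counts) and HAMP (-1.11), and with equal totals 4 rose and 3 fell.

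The genes whose counts over the 6 libraries were most like each member, by Pearson's r of log2 counts, were these among the 4299 or 4300 transcripts at or above the median level. For DKK1 they were MYC (r = 0.999, log2 change -1.96), ICMT (0.999, -1.71) and SLC19A2 (0.999, -1.46), and for NOTUM ETV5 (0.999, -0.31), ATP13A3 (0.999, -1.40) and CACUL1 (0.999, -1.46). With 2 groups of 3, any transcript with a clear difference between the groups and little spread has a high r: r was above 0.95 for 18.8% of transcripts with DKK1 and 17.1% with NOTUM. For BAMBI the nearest were MAF1 (0.989, 0.35), the WNT receptor FZD1 (0.988, 0.60) and SBK1 (0.988, 0.42), and for APCDD1 NOP14-AS1 (0.991, 0.94), ZFP41 (0.986, 0.98) and CMTM8 (0.986, 0.54). An r above 0.95 was reached by 1.86% of transcripts with BAMBI and by 2.44% with APCDD1, whose log2 changes of 0.35 and 0.62 were smaller than those of NOTUM and DKK1. These correlations describe 6 libraries in 2 groups and carry no test.

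Of the 8 nearest tested genes on either side of the members on their chromosomes, 7 did not pass limma's test. Of all tested transcripts 51.9% passed. PRKG1, ASPSCR1, WAC and SVIL had low counts (group means from 8.81 to 49.3, SE of the log2 change from 0.29 to 0.48). For these, not passing does not show that they were unchanged. DKK1 lies between PRKG1 (15.9 kb away, log2 change 0.40, adjusted p = 0.254) and MBL2 (448 kb, -0.25, 0.0736). NOTUM lies between MAFG-DT (21.8 kb, 0.24, 0.218) and ASPSCR1 (16.4 kb, -0.33, 0.493). BAMBI lies between WAC (54.4 kb, 0.68, 0.137) and SVIL (774 kb, 0.68, 0.258). The exception, RAB31, 592 kb from APCDD1, fell (538 ± 33.1 and 226 ± 29.6 normalized counts, log2 change -1.25, limma adjusted p = 2.07e-06), opposite to APCDD1, and NAPG, 36.1 kb away on the other side, had a log2 change of -0.12 (adjusted p = 0.357).

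The direction of all 4 genes was the same under each of the 17 alternative settings. On the log2 scale NOTUM ranged from -2.09 to -1.83, DKK1 from -1.89 to -1.68, BAMBI from 0.27 to 0.52 and APCDD1 from 0.53 to 0.79.

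**Figure D5:**
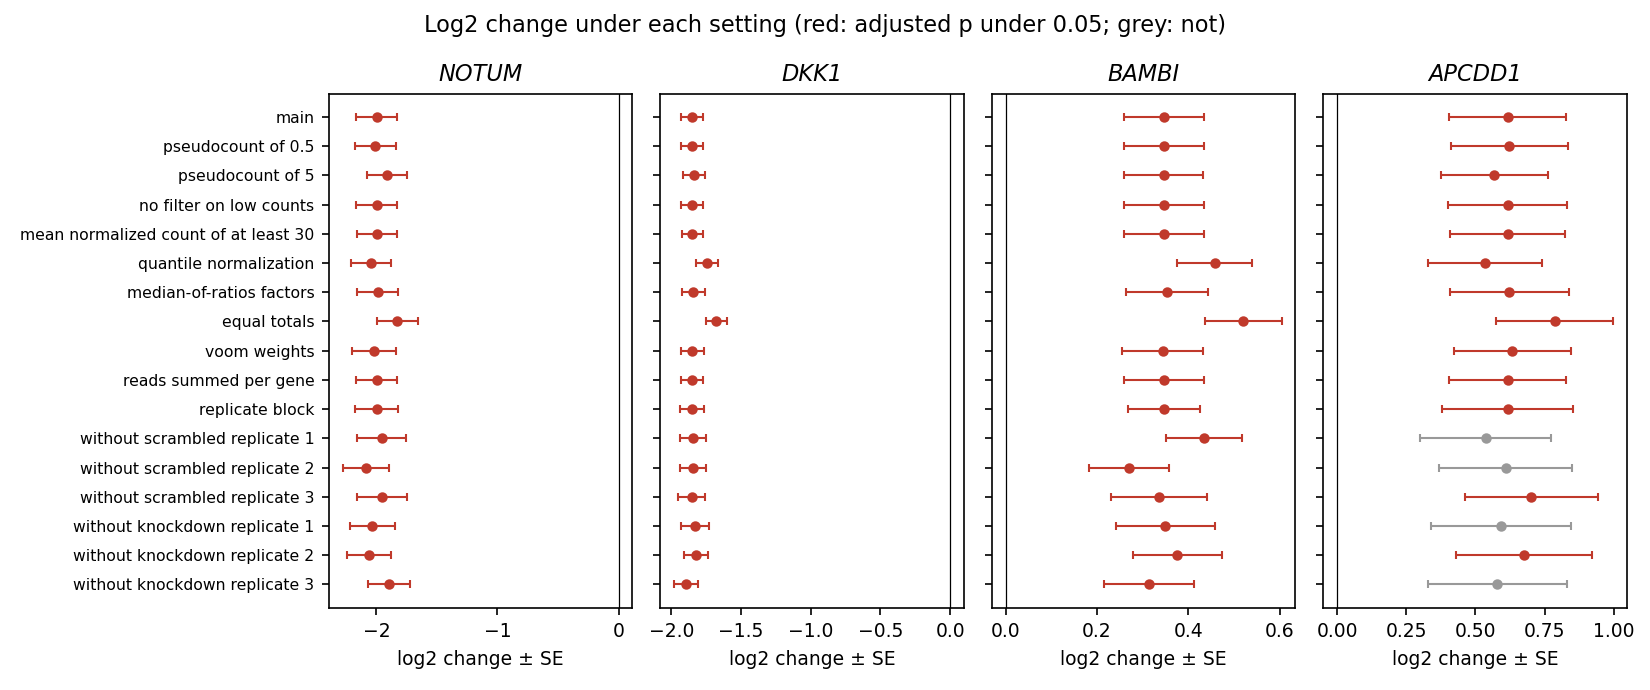
Log2 change with SE (x axis, a separate scale for each gene) of the 4 genes in the reported fit (top line) and under 16 alternatives on the log2 scale, red where the adjusted p was under 0.05 and grey where it was not. The grey points are the 4 single-library omissions under which APCDD1 lost its call.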

How the data were processed

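Each row of the deposited table is a RefSeq transcript, and each library has 1 column of signal values made by the authors. HISAT2 2.0.4, HTSeq 0.6.1 and build hg38 appear in the submitters' processing notes, which give them no role. No source used here states the annotation, strand setting, row filter or treatment of shared reads. From the values, each deposited signal is a scaled square root: squared, it equals a whole number plus 0.375, multiplied by a step that is constant within a library. Whole reads were recovered within 0.05 for 100% of rows, and multiplied by the library's relative step to give normalized counts, which keep the authors' scale factors. Transcripts with a mean of at least 10 entered limma 3.58.1 (R 4.3.3, eBayes with a trend) on log2(normalized count + 1). The test was two-sided, p-values were adjusted by Benjamini-Hochberg over all 8600 transcripts, and the threshold was 0.05. This scale understates changes of transcripts with few reads. Fold values are ratios of mean normalized counts. "Rose" and "fell" mean past this threshold.

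List genes entered with their most abundant tested transcript. Many list genes had no row in the deposited table. Its row filter is not stated, so a missing row does not show that a gene was not expressed. The naming rule took the 4 members, ABL1, for each list up to 4 genes of smallest p among those past the threshold, and the 3 transcripts most like each member. The members and lists were chosen with earlier results of these data known. Rows were matched by RefSeq identifier (97.8%) to RefSeq GRCh38.p14, and exons came from GENCODE 29 on GRCh38. The scripts were tested on simulated data, with 50 transcripts changed at each fold. The test recovered 12% of 1.25-fold, 60% of 1.5-fold, 78% of 2-fold and 94% of 4-fold changes, and 10 of its 132 calls were false. Calls were far fewer there than the 4460 here, so these shares may not carry over. No library pair was a duplicate (chi-square per degree of freedom 5.95 to 10.7 within groups). Alternatives covered pseudocount, filter, scaling, variance model, test scale, summing per gene, a replicate block and leaving out each library.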

Additional observations from a re-analysis of the deposited data

How the results depend on the processing

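NOTUM, DKK1 and BAMBI kept their direction and their call under all 17 alternatives, with limma adjusted p up to 3.19e-05, 3.79e-07 and 0.0238. APCDD1 lost its call under 4 of the 6 omissions of a library, over which its log2 change ran from 0.54 to 0.70 (adjusted p = 0.0337 to 0.0808). It had 118 and 167 reads in the 2 groups, and its adjusted p was 0.0472 with quantile normalization. The count of called transcripts ran from 3932 to 4821 over the alternatives with the same threshold.

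Libraries of the same replicate number were only weakly alike: deviations from the group means correlated at 0.0471, 0.0765 and 0.0768 for replicates 1, 2 and 3. Between different numbers the correlations ran from -0.153 to 0.0886, so a pairing was neither shown nor excluded. With a replicate block 4821 transcripts were called in place of 4460, and the 4 genes had limma adjusted p of 8.26e-11 (NOTUM), 4.85e-17 (DKK1), 0.000434 (BAMBI) and 0.0281 (APCDD1). The SE was larger with the block for NOTUM (0.179 against 0.167), DKK1 (0.0866 against 0.0794) and APCDD1 (0.237 against 0.211). It was smaller for BAMBI (0.0788 against 0.0878). The smaller adjusted p of NOTUM and DKK1 thus did not come with a smaller SE. ZNRF3 and LRP6 passed with the block (adjusted p = 0.0255 and 0.0460). At an adjusted p under 0.01 the count was 3263.

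Of 75 other named genes 56 kept their direction and call under every alternative that gave them a value (a mean of at least 30 leaves out the rarest). Signs changed only for genes that did not pass: CTNNB1 (0.079 with equal totals, 0.072 as a difference on the authors' square-root scale, and -0.61 to 0.35 when 1 library was left out, above 0 only without knockdown replicate 1), IGFBP4 (-0.063 to 0.11 when 1 library was left out) and SFRP1 (-0.59 to 0.12, above 0 only without scrambled replicate 1). The calls of ETV5, BCL9L, GLUL and SP5 were lost with equal totals (GLUL also without 4 of the single libraries), and that of LGR4 with quantile normalization. The causes were not tested.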

Other observations

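The remaining WNT pathway lists hold genes downstream of the ligand. The list of cytoplasmic regulators named 25 genes, of which 13 had a row, and AXIN1 and GSK3B were not among these. Of 13 tested cytoplasmic regulators 5 fell and 0 rose: the casein kinases CSNK1G2 (-1.11) and CSNK1G1 (-0.54), NKD1 (-1.48), and the Dishevelled genes DVL2 (-0.38) and DVL1 (-0.48). With equal totals 5 of them fell and 2 rose. The share called was 38.5% here and 37.5% for the nuclear factors, below the 51.9% of all tested transcripts. The row of CTNNB1, the gene of beta-catenin, held 25.9 ± 1.07 normalized counts in the scrambled and 28.4 ± 19.9 in the knockdown libraries, and did not pass (limma adjusted p = 0.874). The treatment of reads shared between transcripts is not stated, so this row may not hold all reads of the gene. The list of nuclear factors named 19 genes, of which 8 had a row, and TCF7L2 and LEF1 were not among these. Of 8 tested nuclear factors TCF7L1 (-1.31), HDAC1 (-0.83) and BCL9L (-0.35) fell and 0 rose, which became 3 rises and 2 falls with equal totals. Of the R-spondin module LGR4, a receptor for R-spondins, fell (-0.38), and ZNRF3 was the only other gene tested. Of 5 tested pericentral hepatocyte targets CYP27A1 (-0.56) and GLUL (-0.96) fell, GLUL not without scrambled replicate 1 or 2 or knockdown replicate 1 or 3 (adjusted p = 0.0615 to 0.0970), and AHR (0.55) rose.

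On the BMP and TGF-beta side, the SMAD list had SMURF2 (138 ± 14.4 to 323 ± 58.1 normalized counts) and SMAD4 (0.29) higher and the repressor SKI (-0.92) and SMAD3 (-0.77) lower. Of 8 tested extracellular BMP and TGF-beta antagonists TWSG1 (0.80), BMPER (1.54) and SOSTDC1 (1.63) rose, and FSTL1 (-0.83) was among those that fell. The share called was 87.5% of these antagonists and 100% of the 4 tested SMAD list genes, beside 51.9% of all tested transcripts.

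Several markers of other cell types had high counts, such as COL1A2 (7820 ± 522 normalized counts in the scrambled group), LYZ (5997 ± 314), SOX9 (4163 ± 446) and KRT19 (3934 ± 467). Of 6 tested fibroblast and stellate markers 4 rose and 1, COL1A1 (log2 change -1.03), fell. Their summed normalized counts ran from 8912 to 9908 in the scrambled and from 13259 to 14609 in the knockdown libraries. These sums are mostly COL1A2, which had 11998 ± 672 in the knockdown group. Of 5 tested biliary markers 4 fell (summed counts 8561 to 9784 against 5795 to 6227), and of 4 endothelial markers 3 fell and 1 rose (176 to 204 against 125 to 147). Of 3 immune markers LAPTM5 (log2 change -2.39) and FCER1G (-0.79) fell and LYZ rose. Their summed counts (5714 to 6331 against 6544 to 7489) are nearly all LYZ. Of all tested transcripts 51.9% were called, 24.5% higher and 27.4% lower in the knockdown. None of the tested markers was at 0 in a whole group, and their part in the results for NOTUM, DKK1, BAMBI and APCDD1 was not tested.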
